A study of Homo sapiens with 23 samples.

Results

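The compounds that serve the study as negative controls, Neg1 (BAK_04_054) and Neg2 (BAK_04_066), were compared with the DMSO vehicle after 4 h in SUDHL5 cells, and the baseline transcriptome of these lymphoma cells was described from the same libraries. The members were defined by their labels, with earlier results of these data known. They were 2 libraries of cells given 30 nM Neg1, 2 of cells given 30 nM Neg2 and 3 of cells given DMSO, 7 of the 23 libraries in the series. All were harvested at 4 h, and vehicle and compounds were given at the same final concentration of DMSO. The other libraries are of cells given CDK-TCIP1 for 2 or 4 h, or Neg1 or Neg2 for 2 h. Of these, the 3 libraries with 30 nM CDK-TCIP1 at 4 h are set against the controls here. SUDHL5 is an established human line of diffuse large B-cell lymphoma, so every value comes from 1 line. Nothing in the labels says that the replicates were separate cultures, and p-values therefore measure only the spread between libraries, which may be technical. In the main test this spread was estimated over all 23 libraries of the series.

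CDK-TCIP1 belongs to a class of bivalent small molecules that bring a pair of proteins together on chromatin. It joins a ligand of BCL6, the repressor that maintains the germinal centre programme, to a ligand of the elongation kinase CDK9, the catalytic subunit of P-TEFb, which phosphorylates RNA polymerase II and releases it from its pause. Germinal centre B cells divide fast, mutate their immunoglobulin genes, and are held back from plasma cell differentiation while PRDM1 and IRF4 are kept low. The labels give no structure for either control compound, and none is given here.

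Levels of different genes are set side by side in TPM, an abundance per library that is scaled by transcript length. One gene is compared between libraries in CPM, counts scaled to library size after TMM normalization. Differences are on the log2 scale, Neg minus DMSO unless said otherwise, with the standard error (SE). The 7 libraries held 17396484 to 24875892 estimated counts. A gene was called where the Benjamini-Hochberg adjusted p of the edgeR quasi-likelihood test was under 0.05.

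The cells carried the RNA of a B cell. All 14 of the B cell transcription factors listed reached 1 TPM in each of the 7 libraries. TCF3, an E protein at the start of the B cell programme, was highest at 720.0 TPM ± 42.9 (SD, n = 7). POU2AF1, the B cell coactivator of octamer-binding factors, stood at 269 TPM ± 20.3 (SD, n = 7), and PAX5, the factor that commits cells to the B lineage, at 35.9 to 44.8 TPM. Of 18 surface genes, 15 reached 1 TPM in each library. CD79A, a signalling chain of the B cell receptor, led them with 1113 TPM, ahead of CD52 (802 TPM) and CD79B (536 TPM). MS4A1, which encodes CD20, was at 286 TPM. The exceptions were FCER2 and TNFRSF13B, at 0 in all 7 libraries, and CR2, with a mean of 0.407 TPM.

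Promoter windows of the listed genes were read from RefSeq (GRCh38.p14), from 250 bases before to 50 bases after the start, and 614 of 808 listed symbols matched a window. The octamer, ATGCAAAT or ATTTGCAT on the other strand, is the sequence bound by the factors that POU2AF1 serves. It was present in the windows of 4 of 19 germinal centre genes (MEF2B, P2RY8, SERPINA9 and MEF2C), of 1 of 12 B cell surface genes (CD53) and of 2.19% of all 27305 symbols. The highest share of any list was in replication-dependent histone genes, 15 of 31, and none of 10 B cell transcription factors or of 14 activated B cell and plasma cell genes had it. The octamer was also in 2 of 25 hypoxia and glycolysis genes, 2 of 28 immediate early genes and 1 of 13 death receptor and caspase genes. In the immunoglobulin list 1 of 3 had it. The CCAAT box, CCAAT or ATTGG on the other strand, is bound by the factor NF-Y. It was present in 9 of 10 MHC class II windows and in 20 of 23 windows of G2/M genes, against 39.7% of all symbols. Shares were also high in other lists, with 3 of 3 erythroid genes, 26 of 31 histone genes, 18 of 23 genes of the unfolded protein and stress responses and 17 of 22 sterol genes. A stretch of 120 bases upstream of the start is printed for 1 member with the motif from each of these lists, 5′ to 3′ on the gene's strand with the motif in capitals, to show the sequences behind the B cell, antigen presentation and cell cycle groups.
MEF2B, chr19:19170282-19170401, minus strand: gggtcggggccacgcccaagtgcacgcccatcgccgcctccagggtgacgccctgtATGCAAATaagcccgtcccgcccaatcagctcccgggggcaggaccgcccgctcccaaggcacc
CD53, chr1:110871090-110871209, plus strand: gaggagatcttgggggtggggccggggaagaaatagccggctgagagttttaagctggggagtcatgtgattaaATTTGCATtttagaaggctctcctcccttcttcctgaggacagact
CD74, chr5:150412911-150413030, minus strand: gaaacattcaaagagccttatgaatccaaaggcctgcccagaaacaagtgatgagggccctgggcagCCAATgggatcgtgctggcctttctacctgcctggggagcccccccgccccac
CCNB1, chr5:69167030-69167149, plus strand: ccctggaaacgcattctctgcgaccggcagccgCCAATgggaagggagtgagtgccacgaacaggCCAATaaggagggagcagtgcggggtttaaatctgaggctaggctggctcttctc
Counting only the motif each stretch was printed for, MEF2B and CD74 hold 1 match each on the printed strand and CCNB1 holds 2. CD53 holds the octamer on the opposite strand. The MEF2B stretch also holds a CCAAT, which is not in capitals. A match describes the letters and does not show that the site is used. MEF2B, a transcription factor of germinal centre B cells, was at 419 TPM, CD53, a leukocyte tetraspanin, at 134 TPM, CD74, the invariant chain of MHC class II, at 2056 TPM and CCNB1, a cyclin of mitosis, at 267 TPM.

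The immunoglobulin RNA was of the IgM lambda type. IGHM, the mu heavy chain, had 2004 TPM (1917 to 2144) and IGLC2, a lambda light chain, 2669 TPM (2235 to 3051), while IGKC, the kappa light chain, was at 0 in all 7 libraries. IGHD, the delta heavy chain, was at 21.2 TPM. Of the switched isotypes, IGHA2 was at 113 TPM and IGHA1 at 25.2 TPM. IGHG2 and IGHG4 were at 0 in all 7, and IGHG1 and IGHG3 had means of 0.0962 and 0.0895 TPM. Several constant genes are near-identical copies, so the split between IGLC2 and IGLC3 (205 TPM), and between IGHA1 and IGHA2, is uncertain. JCHAIN, which joins IgM and IgA chains into polymers, was at 277 TPM.

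The 5 markers used to check the germinal centre type were all on. BCL6 was at 200.2 TPM, SERPINA9 at 137 TPM, MYBL1 at 94.4 TPM, MME (the surface peptidase CD10) at 71.4 TPM and LMO2 at 13.3 TPM. Of the 5 set against them, IRF4 averaged 0.00849 TPM, PRDM1 0.104 TPM, CCND2 0.0279 TPM, CD44 0.0294 TPM and ENTPD1 1.38 TPM. These 5 and 5 genes did not overlap in any library: the lowest value of the first was 9.54 TPM, for LMO2, and the highest of the second 1.62 TPM, for ENTPD1. Of all 24 germinal centre genes listed, 23 reached 1 TPM in each library. IRAG2 led them with 1103 TPM, ahead of MEF2B and of DTX1 (267 TPM), and EZH2, the methyltransferase of Polycomb, stood at 77.6 TPM. The full lists did not separate in this way. Of 16 genes listed for activated B cells and plasma cells, 10 reached 1 TPM in each library, among them CD27 (133 TPM), MZB1 (55.9 TPM), XBP1 (39.5 TPM), LMAN1 (31.6 TPM) and FUT8 (7.05 TPM), while the germinal centre genes A4GALT and CD38 were at 6.55 and 2.896 TPM.

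**Figure D1:**
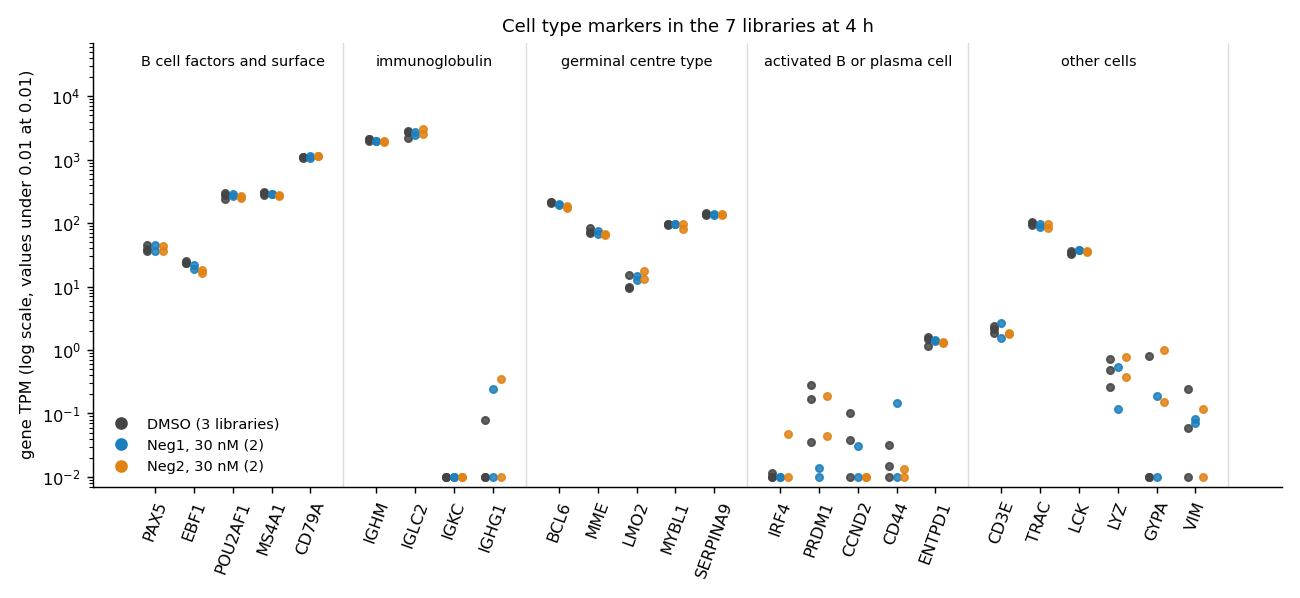
Gene TPM (log axis) of cell type markers in each of the 7 libraries at 4 h, 1 point per library and coloured by treatment, with values under 0.01 TPM drawn at 0.01. Of the 5 germinal centre type markers plotted, LMO2 is lowest and stays at or above 9.54 TPM, and of the 5 plotted against them ENTPD1 is highest, at or below 1.62 TPM.

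Markers of other cell types were mostly at or near 0. The 12 myeloid genes summed to 1.33 to 4.68 TPM in a library, with S100A8, S100A9 and MPO at 0 in all 7. The 8 erythroid genes summed to at most 1.78 TPM, with HBB at 0. Of 6 endothelial genes EMCN alone reached 1 TPM in each library, with a mean of 2.46 TPM. Among 16 T and NK cell genes, TRAC (94.6 TPM), the kinase LCK (35.6 TPM), CD247 (24.7 TPM) and CD3E (2.05 TPM) reached 1 TPM in each library, while CD2 and GZMB were at 0. Their summed level was 156 to 168 TPM in the DMSO libraries and 149.8 to 165 TPM in the Neg libraries, ranges that overlap. In bulk RNA, fewer cells of a type and less RNA per cell cannot be told apart. Of 12 epithelial and fibroblast genes, DCN, a matrix proteoglycan, was on at 38.6 TPM, while COL1A1 had a mean of 0.0372 TPM. VIM, the intermediate filament gene of most blood cells, averaged 0.0819 TPM.

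Antigen presentation and antigen receptor signalling were on. All 12 MHC class II genes reached 1 TPM in each library, led by CD74 and HLA-DRA (667 TPM), with the transactivator CIITA at 14.01 TPM. Of 20 receptor signalling genes, 19 did so, and VAV2 (0.004900 TPM) did not. CD81, a tetraspanin, was at 484 TPM, the phospholipase PLCG2 at 159 TPM, and the kinases LYN, BTK and SYK at 47.998, 42.01 and 40.9 TPM.

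The proteins that CDK-TCIP1 addresses, and their partners, were transcribed. All 18 BCL6 corepressor genes reached 1 TPM in each library, from the deacetylase HDAC1 at 277 TPM, CTBP1 at 124 TPM and MTA3 at 108 TPM to BCOR at 19.3 TPM and BCORL1 at 3.72 TPM. Of 33 genes of P-TEFb and elongation, 31 did so. CDK9 was at 49.2 TPM, its cyclins CCNT1 and CCNT2 at 26.4 and 18.1 TPM, and HEXIM1, which holds P-TEFb inactive, at 9.11 TPM. The exceptions were the elongation factor ELL2 (0.544 TPM) and AFF1 (0.475 TPM), a scaffold of the super elongation complex; ELL3, a relative of ELL2, was at 194 TPM. The bromodomain gene BRD2 was at 204 TPM.

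Among anti-apoptotic genes, MCL1 was highest at 232 TPM, ahead of BIRC3 (150.4 TPM) and BIRC5 (98.4 TPM), an order that held in each library. BCL2L1 was at 16.96 TPM, BCL2A1 at 3.12 TPM and BCL2 itself at 0.706 TPM (0.565 to 0.882). Among pro-apoptotic genes, BIK led with 212 TPM, then BAX (102 TPM) and BID (62.6 TPM). BCL2L11 and PMAIP1, which encode the BH3-only proteins BIM and NOXA, were at 46.96 and 46.7 TPM, and BBC3, which encodes PUMA, at 12.005 TPM.

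Over all genes, 11498 reached 1 TPM in each of the 7 libraries, 9941 of them protein-coding. The 100 genes with the highest mean held 41.4% of all TPM, 40.7% in the lowest library and 42.4% in the highest. The mRNAs of 79 cytosolic ribosomal proteins held 25.4% and the 13 mitochondrially encoded mRNAs 10.3%. The highest genes by TPM were MT-CO2 (18038 TPM), MT-CO3 (14564 TPM) and MT-CO1 (13340.0 TPM), subunits of cytochrome c oxidase, then MT-ND3 (12749.6 TPM) and MT-ND4L (12724 TPM) of complex I. TPM is scaled by transcript length, so a short transcript can rank high in TPM with fewer counts. MT-ND3 had lower CPM than MT-ATP6 in each of the 7 libraries, so its rank depends on this scaling. The share of the mitochondrially encoded mRNAs in TPM rests on the same scale. RPL41 (9363 TPM), RPS18 (8126 TPM), the elongation factor EEF1A1 (7609 TPM) and GAPDH (7376 TPM) were the highest protein-coding nuclear genes. Long non-coding genes held 2.38%, and 1 of them, ENSG00000283907 (GRCh38, chromosome 19, 35557956 to 35581954), had 7680.1 TPM. It is annotated as antisense, and since the sources used here do not state whether counting used strand, its reads and those of the opposite gene cannot be told apart. The next were ENSG00000280614, ENSG00000280800 and ENSG00000281181 on chromosome 21, each with 878 TPM and with identical values in every library, and SNHG6 (565 TPM).

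The 7 libraries were close to each other. Libraries of the same group differed by a median of 0.0867 to 0.0960 in log2 CPM per gene over 5 pairs, and a Neg and a DMSO library by 0.0877 to 0.112 over 12 pairs, ranges that overlap. Over the 10086 genes with an average of at least 2 log2 CPM over the 23 libraries, the first principal component held 32.4% of the variance and placed the DMSO libraries at 7.499 to 11.3 and the Neg libraries at -14.5 to -0.248, without overlap. Among protein-coding genes averaging at least 4 log2 CPM over all 23 libraries, those that varied most over these 7 were APOLD1, TSPAN7, EIF3CL, SLX1B, SLC10A3 and ZBED1. APOLD1 passed that minimum through libraries with CDK-TCIP1 and had 1.66 to 4.16 CPM with DMSO and 3.65 to 6.43 CPM with Neg. EIF3CL and SLX1B have near-identical copies in the genome, so their estimated counts are uncertain. TSPAN7, which encodes a tetraspanin, had 92.7, 75.2 and 89.5 CPM in the DMSO libraries, 5.15 and 34.95 CPM with Neg1 and 14.8 and 46.8 CPM with Neg2. All Neg values lay under all DMSO values, with a wide spread among the Neg libraries, and the difference of -1.79 ± 0.51 was not called (edgeR adjusted p = 0.51), though 3 of 17 alternative fits called it.

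No gene was called between the 4 Neg and the 3 DMSO libraries: 0 of 17743 genes passed the edgeR quasi-likelihood test (0.0% called). At an unadjusted p under 0.05, 1177 genes passed (6.63%), 527 higher (2.97%) and 650 lower (3.66%) in the Neg libraries. The smallest adjusted p was 0.322, for CWC22. The groups did not overlap for 1632 genes (9.2%), 753 higher (4.24%) and 879 lower (4.95%) with Neg. Among the 10086 genes of at least 2 log2 CPM, the 95% interval of the difference lay within 1.5-fold in both directions for 93.7% and within 2-fold for 99.1%. For the 2746 genes at 0 to 2 log2 CPM the same shares were 6.08% and 54.8%. For the 4911 genes below 0 log2 CPM these shares were 0.468% and 1.43%, so differences of that size were mostly not detectable in them at this depth.

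The count of calls changed with the fit, and the main fit took its spread from all 23 libraries. It was 137 with no filter on low counts, all of them genes that the filter keeps, 15 when only the 7 libraries entered the edgeR fit, 11 with DESeq2 (1161 at an unadjusted p under 0.05) and 23 with limma voom on the 7 libraries as a pair of groups.

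**Figure D2:**
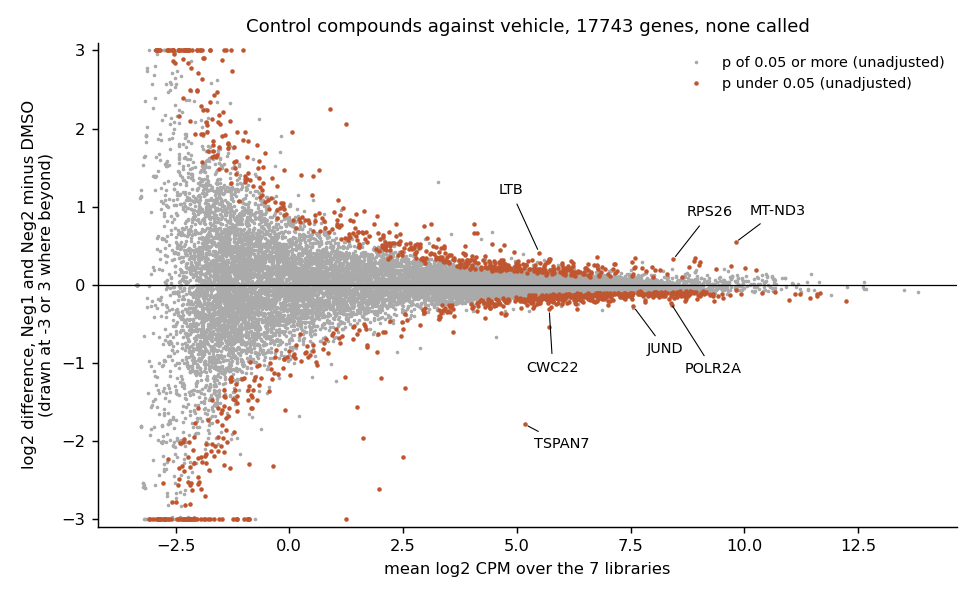
Log2 difference, Neg1 and Neg2 minus DMSO, against the mean log2 CPM over the 7 libraries, 1 point per gene for 17743 genes, with the 1177 at an unadjusted p under 0.05 in colour and differences beyond 3 drawn at 3 or -3. Of the 10086 genes averaging at least 2 log2 CPM, 99.3% of estimates lie within 0.5 of 0, and no gene is called.

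The gene with the smallest p was CWC22, which encodes a splicing factor that brings the exon junction complex to mRNA. It had 59.05, 59.3 and 59.7 CPM in the DMSO libraries, 45.6 and 51.7 CPM with Neg1 and 47.8 and 45.8 CPM with Neg2. Every Neg value lay below every DMSO value, and the difference was -0.31 ± 0.06 (95% interval -0.44 to -0.19). JUND, an AP-1 transcription factor, had 209.6, 215 and 209 CPM with DMSO, 169 and 174 CPM with Neg1 and 174 and 179 CPM with Neg2. Again the groups did not overlap, the difference was -0.28 ± 0.06 (edgeR adjusted p = 0.42), and 6 of 17 alternative fits called the gene. ATP13A1, a P-type ATPase, had 81.3 to 89.8 CPM with DMSO and 68.02 to 76.002 CPM with Neg, a difference of -0.25 ± 0.05. These groups did not overlap. The unnamed gene ENSG00000256591 had 14.3 to 15.96 CPM with DMSO and 8.79 to 11.9 CPM with Neg. POLR2A, which encodes the catalytic subunit of RNA polymerase II, was singled out after its values were seen, because 4 alternative fits called it. It had 362, 376 and 362 CPM with DMSO, 311 and 325 CPM with Neg1 and 317 and 293 CPM with Neg2, without overlap, a difference of -0.23 ± 0.06 (edgeR adjusted p = 0.51).

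On the higher side, RPS26, a protein of the small ribosomal subunit, had 286, 306 and 324 CPM with DMSO, 350.2 and 383 CPM with Neg1 and 413 and 385 CPM with Neg2. The groups did not overlap, the difference was 0.32 ± 0.08 (95% interval 0.17 to 0.48), and 6 of 17 alternative fits called it. TMEM258, a subunit of the oligosaccharyltransferase, had 44.6 to 48.04 CPM with DMSO and 52.9 to 59.2 CPM with Neg, a difference of 0.31 ± 0.07. UBXN11 had 32.9 to 33.9 CPM with DMSO and 38.5 to 43.01 CPM with Neg, a difference of 0.30 ± 0.08. The antisense genes C1RL-AS1 and PSMA3-AS1 had differences of 0.78 ± 0.18 and 0.50 ± 0.13, with the limit on strand given above. RPL7AP10, a ribosomal protein pseudogene, was at 0 in all 3 DMSO libraries and at 0.257 to 0.365 CPM in the Neg libraries, a level at which no fold is given. None of these genes was called: their edgeR adjusted p lay between 0.322 and 0.51.

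**Figure D3:**
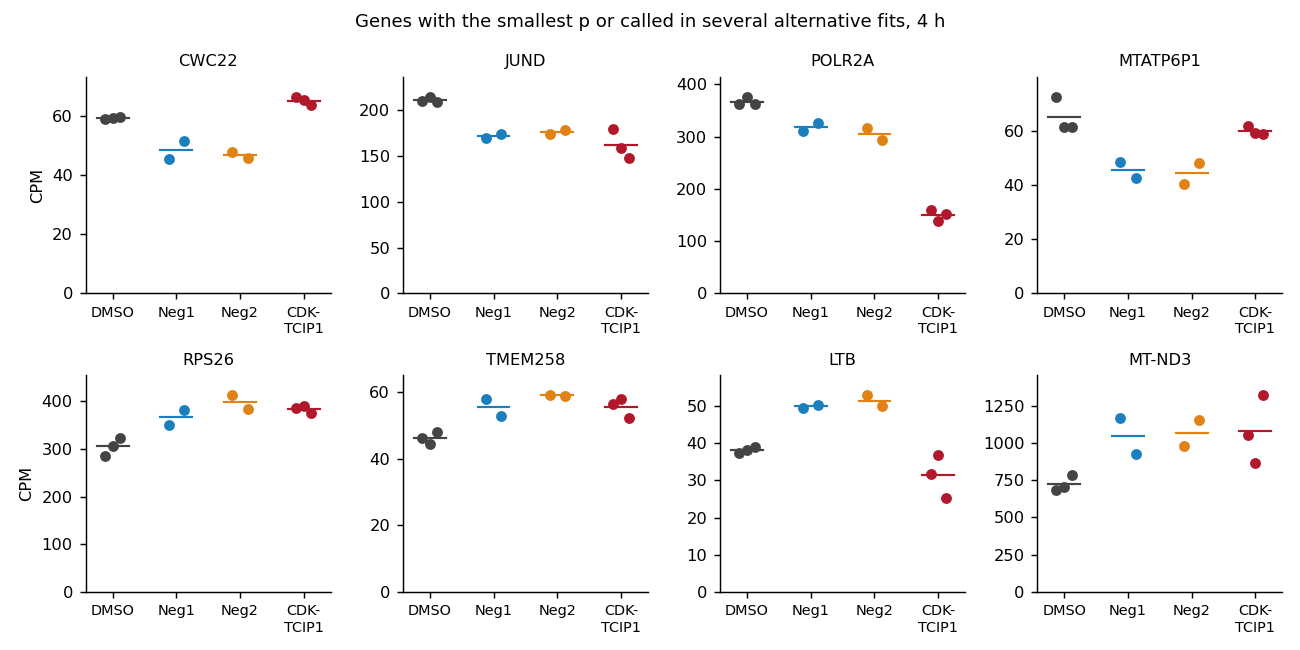
CPM by library at 4 h of 8 genes with a small p or called by several alternative fits, with group means as bars, for DMSO (3 libraries), Neg1 (2), Neg2 (2) and CDK-TCIP1 (3), axes from 0. For each gene the 4 Neg points lie on 1 side of the 3 DMSO points, as for CWC22 with 45.6 to 51.7 CPM against 59.05 to 59.7 CPM.

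Pseudogenes near this rank share their sequence with a highly expressed gene. MTATP6P1 (GRCh38, chromosome 1, 633696 to 634376, plus strand), a nuclear copy of the mitochondrial gene MT-ATP6, had 72.6, 61.5 and 61.4 CPM with DMSO and 48.3, 42.6, 40.6 and 48.1 CPM with Neg, a difference of -0.54 ± 0.12 (edgeR adjusted p = 0.42), and 6 of 17 alternative fits called it. RPL21P16 (chromosome 10, 120354701 to 120355183, minus strand), singled out after its values were seen, had 70.7, 65.3 and 75.1 CPM with DMSO and 0, 0, 0 and 1.14 CPM with Neg, without overlap. It was not called (edgeR adjusted p = 0.455), and 6 of 17 alternative fits called it. Over all 23 libraries it ran from 0 to 135 CPM, with 6 libraries at 0. The annotated transcript of RPL21P16 is identical over all 483 bases to a stretch of RPL21, and that of MTATP6P1 differs from MT-ATP6 at 10 of 681 bases. The first 60 bases that RPL21 and RPL21P16 share from the start codon, and bases 116 to 175 of MT-ATP6 and its copy, are printed to show where they match, with mismatches in capitals.
RPL21 and RPL21P16: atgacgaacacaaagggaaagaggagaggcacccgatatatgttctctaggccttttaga
MT-ATP6: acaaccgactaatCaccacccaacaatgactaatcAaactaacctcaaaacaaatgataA
MTATP6P1: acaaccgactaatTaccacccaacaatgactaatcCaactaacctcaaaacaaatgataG
The longest run without a mismatch between MT-ATP6 and MTATP6P1 is 141 bases. RPL21, a protein of the large ribosomal subunit, stood at 903 CPM ± 51.3 (SD, n = 3) with DMSO and 959 CPM ± 24.4 (SD, n = 4) with Neg. MT-ATP6, a subunit of ATP synthase, had 2164 to 2221 CPM with DMSO and 1792 to 2056 CPM with Neg, a difference of -0.19 ± 0.06 (edgeR adjusted p = 0.602). The split of counts between such copies is uncertain.

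Cell identity genes gave small estimates. Of the 24 germinal centre genes none was called, and 1 was higher and 1 lower at an unadjusted p under 0.05 (2.97% and 3.66% over all genes). Their median difference was 0.0214 beside -0.00422 for all genes. BCL6 had 409.6, 393 and 399.5 CPM with DMSO, 393 and 398 CPM with Neg1 and 362 and 356 CPM with Neg2. The groups overlap through the Neg1 libraries, and the difference was -0.09 ± 0.04 (edgeR adjusted p = 0.735). EZH2 differed by -0.02 ± 0.04. EBF1 had the smallest p of the B cell transcription factors, with 55.9 to 62.9 CPM in the DMSO and 45.7 to 55.01 CPM in the Neg libraries, a difference of -0.28 ± 0.07 (edgeR adjusted p = 0.492). Of 7 immunoglobulin constant genes tested none had an unadjusted p under 0.05, and IGHM differed by -0.03 ± 0.04 and IGLC2 by 0.02 ± 0.06.

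Most genes around CDK9 and BCL6 also gave small estimates. CDK9 differed by -0.04 ± 0.08, CCNT1 by -0.07 ± 0.07, HEXIM1 by 0.06 ± 0.12 and the proliferation factor MYC by -0.10 ± 0.08, with 95% intervals that contain 0. Of 33 genes of P-TEFb and elongation, 1 was higher at an unadjusted p under 0.05 (2.97% over all genes), with a median of -0.0381. Their estimates ran from -0.263 to 0.486, and for 29 the 95% interval lay within 1.5-fold. Of 39 genes described as repressed by BCL6, 34 were tested, with a median of 0.0076 and estimates from -2.17 to 1.02. For 30 of them the 95% interval lay within 1.5-fold. ATR, a kinase of the DNA damage response, was the 1 gene at an unadjusted p under 0.05 (-0.25 ± 0.11), where 3.66% of all genes were lower. CDKN1A differed by 0.03 ± 0.10, CDKN1B by 0.11 ± 0.08, FOXO3 by 0.01 ± 0.11 and CD69 by 0.01 ± 0.11. IRF4 was too low to be tested, and PRDM1 stayed under 1 CPM in each of the 7 libraries.

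Cell death genes held no call either. None of 13 pro-apoptotic and 11 anti-apoptotic genes tested had an unadjusted p under 0.05. BCL2L11 differed by -0.02 ± 0.06, PMAIP1 by -0.07 ± 0.07, BBC3 by 0.15 ± 0.13 and the death receptor FAS by 0.02 ± 0.14. MCL1, with 636 to 693 CPM in the DMSO and 677 to 692 CPM in the Neg libraries, differed by 0.03 ± 0.05 (95% interval -0.07 to 0.14).

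Stress and signalling lists held single genes without overlap between the groups, as was the case for 9.2% of all genes. Of the 25 listed for the unfolded protein response and the integrated stress response, 22 estimates lay above 0 (8657 of 17743 over all genes), the median was 0.105, and 5 were higher and 0 lower at an unadjusted p under 0.05, where 2.97% of all genes were higher and 3.66% lower. XBP1, a factor of the unfolded protein response, had 41.1 to 46.9 CPM with DMSO and 53.5 to 55.9 CPM with Neg, a difference of 0.29 ± 0.08 (edgeR adjusted p = 0.51). CHAC1, a target of ATF4, had 32.2 to 38.2 CPM with DMSO and 41.6 to 46.9 CPM with Neg, while ATF4 differed by 0.05 ± 0.06 and the chaperone HSPA5 by 0.11 ± 0.06. Of 20 NF-kB targets tested, 3 were higher and 0 lower at that threshold (2.97% and 3.66% over all genes), and the median was 0.0417. LTB, lymphotoxin beta, had 37.4, 38.1 and 39.02 CPM with DMSO, 49.6 and 50.3 CPM with Neg1 and 52.99 and 50.02 CPM with Neg2. Every Neg library was above every DMSO library, the difference was 0.41 ± 0.15 (edgeR adjusted p = 0.651), and 5 of 17 alternative fits called it. NFKBIA, the inhibitor of NF-kB, differed by 0.16 ± 0.07 with overlapping groups.

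Of 33 interferon-stimulated genes tested, 2 were higher (BST2, 0.22 ± 0.07, and STAT2, 0.25 ± 0.09) and 1 lower at an unadjusted p under 0.05. Over all genes 2.97% were higher and 3.66% lower, and the median of the list was 0.0819. VEGFA, an angiogenic factor of the hypoxia list, had 21.003 to 23.1 CPM with DMSO and 26.7 to 30.9 CPM with Neg, a difference of 0.32 ± 0.08 (edgeR adjusted p = 0.51). In the xenobiotic and oxidative stress list 1 of 20 genes tested, SRXN1 (-0.20 ± 0.08), had an unadjusted p under 0.05, and in the sterol list none of 28 did. The share over all genes was 6.63%.

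Proliferation genes had estimates mostly below 0, as did genes with long transcripts. Among genes of at least 4 log2 CPM, 28.5% lay above 0 in the longest of 10 groups by transcript length. The part of length in the lists below was not tested. Of 28 G1/S and DNA replication genes, 5 estimates were above 0 (8657 of 17743 over all genes), the median was -0.0677, and 3 were lower at an unadjusted p under 0.05 (3.66% over all genes). ORC1, a subunit of the origin recognition complex, had 81.6, 88.97 and 85.9 CPM with DMSO, 67.5 and 70.8 CPM with Neg1 and 76.8 and 75.1 CPM with Neg2, without overlap, a difference of -0.24 ± 0.06 (edgeR adjusted p = 0.492). The other two were MCM2 (-0.10 ± 0.04) and MCM3 (-0.09 ± 0.04), subunits of the replicative helicase. None of 28 G2/M genes had an unadjusted p under 0.05, and 10 estimates were above 0, with a median of -0.0188. Of 34 MYC targets, 5 were lower at that threshold (3.66% over all genes), among them the spermidine synthase SRM (-0.18 ± 0.06) and the chaperonin subunit CCT2 (-0.15 ± 0.05). Their median was -0.0296, with 8 estimates above 0.

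Ribosomal protein mRNAs lay above 0 by a small amount, as did other short transcripts. Of 79 cytosolic ribosomal protein genes, 66 estimates were above 0 (8657 of 17743 over all genes), the median was 0.0632, and 11 were higher and 0 lower at an unadjusted p under 0.05 (2.97% and 3.66% over all genes). RPL36, chosen after its values were seen, had 428, 385 and 456 CPM with DMSO, 538 and 475 CPM with Neg1 and 552 and 577 CPM with Neg2, a difference of 0.34 ± 0.11 (edgeR adjusted p = 0.622). Among the 7539 genes of at least 4 log2 CPM sorted by transcript length into 10 groups, the shortest group had a median difference of 0.068 with 76.4% above 0, and the longest group a median of -0.042 with 28.5% above 0. Of the ribosomal protein genes 72 fell in the shortest group, where their median was 0.0671, and that of the 682 other genes there was 0.0679.

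The length gradient differed between libraries of a group. In the shortest group, DMSO replicates 1, 2 and 3 deviated by -0.0387, -0.0866 and 0.0166 from the mean of the 7 libraries, Neg1 by 0.0166 and -0.0265, and Neg2 by 0.0269 and 0.0974. The groups overlap on this measure, and the extremes are DMSO replicate 2 and Neg2 replicate 2. Against the shared DMSO libraries the median of the shortest group was 0.034 for Neg1 and 0.098 for Neg2. Mean fragment length, taken as deposited transcript length minus effective length, was 266 to 282 bases in the DMSO and 276 to 299 bases in the Neg libraries (exact two-sided permutation p = 0.229), and its part in the gradient was not tested.

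**Figure D4:**
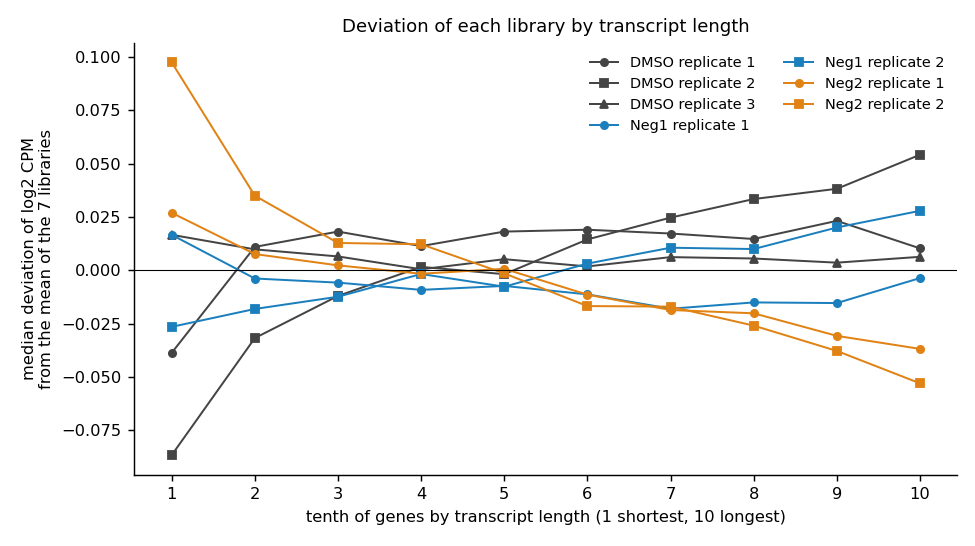
Median deviation of log2 CPM from the mean of the 7 libraries in each of 10 groups of genes by transcript length (1 shortest, 10 longest, 7539 genes in all), 1 line per library. DMSO replicate 2 runs from -0.0866 to 0.0541 and Neg2 replicate 2 from 0.0974 to -0.0530.

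Most estimates for translation factors and mitochondrial mRNAs lay on the other side. Of 34 translation factor genes, 7 estimates were above 0 (8657 of 17743 over all genes), the median was -0.0424, and 5 were lower at an unadjusted p under 0.05 (3.66% over all genes). EEF2, the translocation factor of the ribosome, had 3167 to 3390.0 CPM with DMSO and 2961 to 3067 CPM with Neg, a difference of -0.12 ± 0.04 (edgeR adjusted p = 0.527). The summed share of the list in all TPM was 2.805% ± 0.01204 (SD, n = 3) with DMSO and 2.63% ± 0.0339 (SD, n = 4) with Neg. These shares did not overlap, and the exact two-sided permutation p was 0.0571, the smallest that 4 against 3 libraries can give, and 0.157 when adjusted over the 11 single values tested. Mitochondrial ribosomal RNA, MHC class II mRNAs and the mRNAs of the hypoxia and glycolysis list had the same p by this exact permutation test, each with a lower share in the Neg libraries. By the CPM differences, 6 of the 12 MHC class II genes lay above 0, with a median of 0.00116. Lower TPM sums with Neg were not particular to these classes. BCL6 corepressors summed to 939 to 1022 TPM with Neg and 1029 to 1098 TPM with DMSO, with a median CPM difference of -0.000272. Interferon-stimulated genes summed higher with Neg, 496 to 516 TPM against 465 to 491 TPM. The share of ribosomal protein mRNAs was 24.7% ± 0.8204 (SD, n = 3) with DMSO and 25.9% ± 0.4798 (SD, n = 4) with Neg (exact permutation p = 0.114).

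Of the 13 mitochondrially encoded mRNAs, 7 were lower and 1 higher at an unadjusted p under 0.05 (3.66% and 2.97% over all genes), and the median was -0.132. Their summed share of TPM was 10.4% ± 0.5002 (SD, n = 3) with DMSO and 10.2% ± 0.2236 (SD, n = 4) with Neg. These shares overlapped (exact two-sided permutation p = 0.4). MT-ND2 and MT-ND4, subunits of complex I, differed by -0.17 ± 0.05 and -0.20 ± 0.06, and MT-ATP8 by -0.31 ± 0.09. MT-ND3, also of complex I, was the higher one, with 688, 706 and 784 CPM in the DMSO libraries, 1173 and 925 CPM with Neg1 and 979 and 1155 CPM with Neg2. The groups did not overlap, the difference was 0.54 ± 0.15 (edgeR adjusted p = 0.51), and 5 of 17 alternative fits called it.

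Neither compound alone gave a call against the DMSO libraries, which both comparisons share. The edgeR quasi-likelihood test called 0 of 17743 genes for Neg1 (0.0%), with 770 at an unadjusted p under 0.05 (4.34%), and DESeq2 called 1. For Neg2 edgeR called 0 genes (0.0%), with 1063 at an unadjusted p under 0.05 (5.99%), and DESeq2 called 0. With only the groups compared in the edgeR fit, the counts were 1 for Neg1 and 42 for Neg2. CWC22 differed by -0.29 ± 0.07 with Neg1 and -0.34 ± 0.07 with Neg2. JUND differed by -0.30 ± 0.07 and -0.26 ± 0.07, LTB by 0.39 ± 0.17 and 0.43 ± 0.17, and MT-ND3 by 0.53 ± 0.17 and 0.56 ± 0.17, in the same order.

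Neg1 and Neg2, the 1 pair of control compounds that could be compared at a matched dose and time, gave no call against each other. The edgeR test called 0 of 17743 genes (0.0%), with 464 at an unadjusted p under 0.05 (2.62%), DESeq2 called 1, and an edgeR fit of these 4 libraries alone called 3. Among the 10086 genes of at least 2 log2 CPM, the 95% interval of the difference lay within 1.5-fold for 87.98% and within 2-fold for 98.1%. BCL6 differed by 0.14 ± 0.06 (95% interval 0.02 to 0.26, edgeR adjusted p = 1), higher with Neg1. The intervals of Neg1 minus Neg2 were -0.20 to 0.12 for JUND, -0.32 to 0.08 for RPS26, -0.41 to 0.36 for MT-ND3 and -0.03 to 0.54 for the activation marker CD69.

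The same libraries were set against the active compound at the same dose and time. With 30 nM CDK-TCIP1 against the 4 Neg libraries, edgeR called 6780 genes (38.2%), 3282 higher and 3498 lower, with 8193 at an unadjusted p under 0.05 (46.2%). This comparison shares the Neg libraries with the one against DMSO. Against the DMSO libraries CDK-TCIP1 had 6535 genes called (36.8%). HEXIM1 fell from 24.996 to 29.2 CPM with Neg to 10.7 to 11.01 CPM with CDK-TCIP1 (-1.29 ± 0.13, edgeR adjusted p = 9.6e-09), and MYC fell by 1.12 ± 0.08. CDKN1B, an inhibitor of cyclin-dependent kinases, rose by 1.45 ± 0.08, BBC3 by 1.09 ± 0.13, FAS by 1.099 ± 0.13, CCNT1 by 0.92 ± 0.06 and CDK9 by 0.73 ± 0.08. BCL6 fell by 0.14 ± 0.04 (edgeR adjusted p = 0.0117), and EZH2, BCL2 and BCL2L1 were not called.

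**Figure D5:**
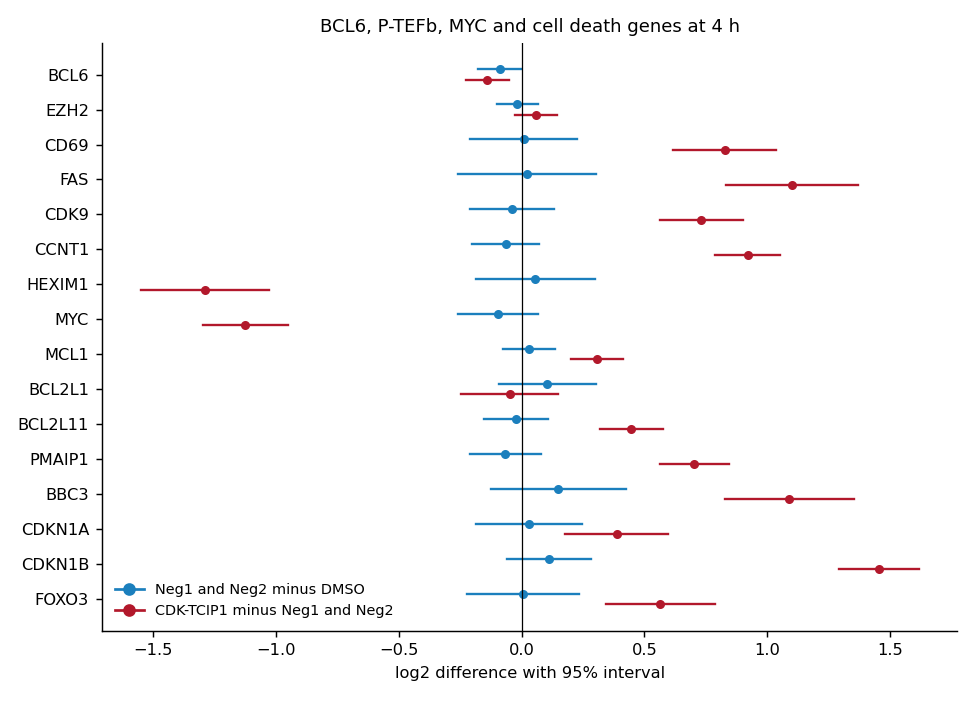
Log2 difference with 95% interval for 16 genes of BCL6 function, P-TEFb, MYC and cell death: Neg1 and Neg2 minus DMSO (7 libraries) and CDK-TCIP1 minus Neg1 and Neg2 (7 libraries). The first set of points lies between -0.10 ± 0.08 for MYC and 0.15 ± 0.13 for BBC3, and the second between -1.29 ± 0.13 for HEXIM1 and 1.45 ± 0.08 for CDKN1B.

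Genes with the largest changes under CDK-TCIP1 were not called between vehicle and control cells. ADAMTSL4, a protein of the extracellular matrix, had 0.5201 to 1.06 CPM with DMSO, 0.297 to 0.986 CPM with Neg and 15.1 to 19.9 CPM with CDK-TCIP1. APOLD1, an early response gene of endothelial cells, had 1.66 to 4.16, 3.65 to 6.43 and 62.97 to 78.1 CPM in the same order, and AFF1 had 1.71 to 2.25, 1.59 to 2.47 and 19.6 to 20.9 CPM. For these 3 the DMSO and Neg libraries overlapped. In the other direction, MPEG1, a perforin-like protein, had 9.38 to 13.3, 11.2 to 13.7 and 1.47 to 3.29 CPM, and B3GNT6, a glycosyltransferase, 19.7 to 20.98, 21.4 to 24.3 and 2.59 to 4.85 CPM.

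Genes that led the comparison of Neg with DMSO differed in what they did with CDK-TCIP1. POLR2A fell from 293 to 325 CPM with Neg to 139 to 160.3 CPM (-1.05 ± 0.07, edgeR adjusted p = 5.2e-12), and LTB from 49.6 to 52.99 to 25.3 to 36.96 CPM (-0.69 ± 0.15). CWC22 rose to 63.7 to 66.5 CPM (0.45 ± 0.06), above its DMSO values. RPS26 (0.01 ± 0.07), MT-ND3 (0.03 ± 0.14) and JUND (-0.10 ± 0.06) were not called between CDK-TCIP1 and Neg.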

How the data were processed

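RNA of SUDHL5 cells was enriched for polyA transcripts and sequenced as paired-end libraries, per the labels' protocols. The authors deposited 1 table per library with an estimated count and a TPM value per transcript. FastQC, cutadapt, kallisto and DESeq2 are named in the submitters' processing notes. Which versions, transcripts and strand option were used is not given in the sources used here. Of 227912 transcripts, 205964 matched GENCODE 29 (GRCh38), and the unmatched ones held 1.19 to 1.24% of counts in the 7 libraries. Estimated counts and TPM were summed per gene, and the count sums rounded to whole numbers. The main test was the edgeR 4.0.16 quasi-likelihood F test in R 4.3.3 with TMM and filterByExpr, fitted to all 23 libraries with 1 coefficient per group, so that all groups share 1 estimate of the spread. Benjamini-Hochberg adjustment ran over the 17743 genes kept. The SE is the absolute log2 difference divided by the root of F. Single values per library were compared by an exact two-sided permutation test. The code was tested on simulated data.

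Genes were named by rule: the 6 with the smallest p each way, the highest genes by TPM, the 3 highest and the smallest p of each list, a set of BCL6, CDK9 and cell death genes, the largest changes with CDK-TCIP1, and the most variable genes. Some of these genes are not reported here. Other list members are examples chosen after their values were seen. The members and lists were chosen with earlier results of these data known. Alternatives were other size factors, no filter, length-scaled counts, a replicate block, fits of fewer groups, DESeq2 1.42.0, limma 3.58.1 (voom) and leaving out each library.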

Additional observations from a re-analysis of the deposited data

Results flagged for a closer look

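Among the 4 Neg libraries, 8 of 200 values tested had 1 library far from the other 3, where chance alone gives about 1 in 20 groups. VEGFA stood at 30.9 CPM in Neg1 replicate 1, above the other three, and BST2 at 71.8 CPM in the same library, below them. PSMA3-AS1 stood at 29.02 CPM in Neg2 replicate 2, below the others. GRB2 was at 416 CPM in Neg2 replicate 1. The other values are of low or copied genes, or of a sum: SLC2A3P1 at 0.156 CPM in Neg1 replicate 2, RPL21P16 at 1.14 CPM in Neg2 replicate 2 with the other three at 0, ALAS2 at 0.129 CPM in Neg2 replicate 1, and the share of mitochondrially encoded mRNAs at 9.88% of TPM in Neg2 replicate 1.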

How the results depend on the processing

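The count of genes called between the pooled Neg libraries and DMSO, 0 in the fit reported, was 0 with DESeq2 size factors and with a replicate block. It was 137 with no filter, 1 with length-scaled counts, 15 with only the groups compared, 11 with DESeq2, 11 with the 7 libraries and both compounds as 1 group, 27 with that coding and a replicate block, and 23 with limma voom. For Neg1 it was 74 with no filter, 1 with only the groups compared and 1 with DESeq2. For Neg2 it was 119 with no filter, 1 with length-scaled counts and 42 with only the groups compared. For Neg1 against Neg2 it was 47 with no filter, 3 with only the groups compared and 1 with DESeq2. Leaving out 1 library at a time gave 0 to 1 genes for the pooled comparison (1 without Neg1 replicate 2), 0 to 2 for Neg1 (2 without Neg1 replicate 1, and 1 without DMSO replicate 3 or Neg1 replicate 2), 0 for Neg2 and 0 to 1 for Neg1 against Neg2 (1 without either Neg1 library). Where this leaves a compound with 1 library, that library is assumed to vary like the other groups. For CDK-TCIP1 against Neg the count was 3880 with length-scaled counts and 5771 to 6109 with 1 library left out, where 6780 were called. The share of TPM in the top 100 genes was 40.8% in DMSO replicate 1, 40.7% in DMSO replicate 2 and 42.4% in Neg2 replicate 2 alone. The cause of these differences was not tested. No call of a named gene turned its direction: of 42 genes with CDK-TCIP1, 6 values lost and 1 gained a call, and of 189 with Neg, 88 values gained one. The direction of a gene called by neither the main nor the alternative fit was not compared. An alternative chosen after seeing the data, without the 2 libraries at 2 h that stand apart, gave 0 calls in all 4 comparisons of Neg and DMSO and 7194 for CDK-TCIP1. The labels do not say whether replicate numbers pair the samples. Same-numbered libraries had correlations of deviations of -0.00299 to 0.0917, which cannot settle this with 2 libraries per compound. The replicate block gave 0 calls in these 4 comparisons and 6581 for CDK-TCIP1. In the fit of the 7 libraries with both compounds as 1 group, it gave 27 calls against 11 without it. Depth limits the genes below 0 log2 CPM most.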
